A study of Danio rerio with 6 samples.

Results

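The fibroblast growth factor 8 ligand gene, the FGF receptor genes and genes that FGF signalling is known to induce were followed in RNA from sorted zebrafish heart reporter cells. The genes were chosen by name, 10 in all (fgf8a, fgfr1a, fgfr2, fgfr3, fgfr4, spry2, spry4, dusp6, etv4 and etv5b). Through a table of gene names they matched 12 of the 27456 gene rows of the count table, because the symbols FGF8 and FGFR1 each belong to 2 identifiers. The name table does not say which FGF8 row is fgf8a or which FGFR1 row is fgfr1a, so both rows of each are described by identifier. The rule takes ENSDARG00000039615 as fgf8a where a single row must be chosen, but this could not be checked here, and ENSDARG00000003399 may be fgf8a instead. Values of either FGF8 row are therefore not values of fgf8a with certainty. Symbols are written as the name table spells them.

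RNA came from cells sorted by fluorescence from 24 hpf (hours post fertilization) embryos of the line tg(myl7::gfp), which makes green fluorescent protein under the promoter of myl7, a myosin light chain gene of heart muscle. Of the 6 libraries, 3 came from Gata4 morphants, embryos injected in early cleavage with 2 nl of 0.7 mM morpholino directed at Gata4, a DNA-binding regulator of heart formation, and 3 from wildtype embryos of the same line and age. The labels do not say whether wildtype embryos received a control oligomer. Batches of roughly 200 embryos were pooled and 100 ng of RNA entered each library. The labels do not say that replicates stem from different clutches, and p-values therefore reflect the spread among these libraries, possibly technical. The morpholino, a synthetic antisense oligomer that acts on the transcript and leaves the gene intact, is shown because it is the only agent that separates the groups.

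Gata4 morpholino: tccacaggtgagcgattattgcttc

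An mRNA-Seq kit was used for morphant replicate 1 and wildtype replicates 1 and 2, and a TruSeq kit for morphant replicates 2 and 3 and wildtype replicate 3. Replicate numbers are names only and pair no libraries. Gene counts summed to between 12574486 and 37906530 per morphant library and to between 15302189 and 21119399 per wildtype library. The Gata4 transcript was not analysed here, so the knockdown could not be checked on it. Over 28 rows of sarcomere and heart marker genes, the summed level was 2647 to 3633 CPM (counts divided by the library total after TMM scaling and set to a common size) in morphants and 4588 to 10644 CPM in wildtype. Leukocyte markers, 28 rows, reached 1702 to 17267 CPM in morphants and 10211 to 19943 CPM in wildtype. They exceeded the heart markers in morphant replicates 2 and 3 and wildtype replicates 2 and 3, so the sorted material was not heart muscle alone. In RNA pooled from many cells, fewer cells of a type and less RNA per cell cannot be told apart.

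FGF ligands bind receptor tyrosine kinases at the cell surface and activate the Ras, Raf, MEK and ERK relay. ERK activity then raises transcription of its own brakes, the Sprouty proteins and the ERK phosphatase Dusp6, and of the ETS transcription factors Etv4 and Etv5, which is why these genes are widely read as markers of active signalling. In zebrafish, fgf8 acts in early heart formation, at the midbrain-hindbrain boundary and in the tail bud.

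None of the 12 rows passed the test between groups. Different patterns were visible library by library. The FGF8 rows and most receptors had their highest values in morphant replicates 1 and 3, with morphant replicate 2 near the wildtype libraries. SPRY4 and DUSP6 had their lowest values in morphant replicate 1, with the other morphant libraries among the wildtype ones. Library orders here and below are those of TMM-scaled CPM. With totals alone the lowest library was wildtype replicate 3 for SPRY4, etv5b and FGFR1 (ENSDARG00000011027) and wildtype replicate 2 for FGFR1 (ENSDARG00000011190), and the highest for DUSP6 was morphant replicate 3. In edgeR's quasi-likelihood test with a term for kit, the adjusted p of the 12 rows lay between 0.393 and 0.986, and 0 of the 18033 genes tested passed an adjusted p of 0.05 (0% of the background). At an unadjusted p under 0.05, 1 of the 12 rows was higher in morphants and 0 were lower, where 7.62% of all genes tested were higher and 4.92% lower, so this share is near the background. DESeq2 called 0 of the 12 rows (lowest adjusted p = 0.0627) and 281 of all genes, 0.66% of them higher and 0.898% lower. By the authors' deposited table, adjusted p-values included, 0 of the 12 rows had an adjusted p under 0.05, against 703 of 27456 genes (2.56%). Of all 18033 genes tested, 9655 had a positive log2 fold change and 8378 a negative one, beside 9 and 3 of the 12 rows. The median log2 fold change, morphant minus wildtype, was 0.54 over the 12 rows and 0.07 over all genes tested. With libraries scaled by totals alone these medians were 0.95 and 0.46, a shift of all genes that the 12 rows shared.

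**Figure D1:**
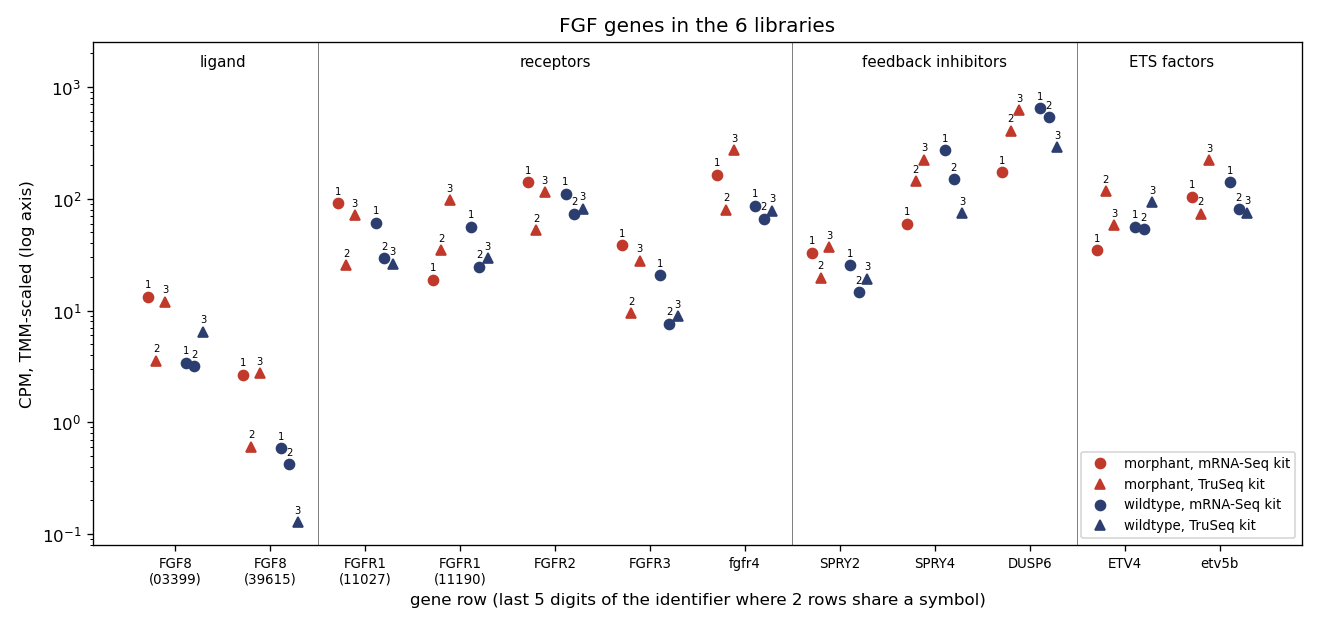
CPM on a log axis for each of the 12 rows in every library, with morphants in red left of wildtype in blue, circles for the mRNA-Seq kit, triangles for the TruSeq kit and the replicate number above each point. In the FGF8 rows morphant replicates 1 and 3 stand above all other libraries, and in SPRY4 and DUSP6 morphant replicate 1 is lowest (for SPRY4 wildtype replicate 3 with totals alone).

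FGF8 (ENSDARG00000039615) was rare. It had 43, 21 and 53 counts in morphant replicates 1, 2 and 3, against 9, 8 and 2 counts in wildtype replicates 1, 2 and 3. Scaled, this was 2.67, 0.604 and 2.76 CPM in morphants and 0.591, 0.423 and 0.128 CPM in wildtype. Every morphant library was above every wildtype library, but morphant replicate 2 was only narrowly above wildtype replicate 1, and below it when libraries were scaled by totals alone. The log2 fold change was 2.86 (SE 0.83, adjusted p = 0.393 in edgeR), with a mean of 2.01 ± 1.22 CPM in morphants and 0.38 ± 0.234 CPM in wildtype (SD, n = 3 each). It was the only one of the 12 rows whose groups did not overlap, where 7.76% of all genes tested were higher in every morphant library and 5.78% lower. Scaled by totals alone 0 of the 12 rows did so, against 11.6% of all genes higher and 3.3% lower. The row reached the count filter's level in 2 morphant libraries and 1 wildtype library, the fewest that the filter accepts. Without morphant replicate 2 its log2 fold change was 3.02 (edgeR adjusted p = 0.0296), in a fit where 8.19% of all genes were called higher and 11.5% lower.

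FGF8 (ENSDARG00000003399), the more abundant row, had 13.3, 3.57 and 12 CPM in morphant replicates 1, 2 and 3, from 214, 124 and 230 counts. Wildtype replicates 1, 2 and 3 had 3.41, 3.17 and 6.47 CPM, from 52, 60 and 101 counts. Morphant replicates 1 and 3 were the highest of the 6 libraries, while morphant replicate 2 lay within the wildtype range, so the groups overlapped. The log2 fold change was 1.14 (SE 0.62, adjusted p = 0.409 in edgeR), with means of 9.62 ± 5.28 CPM in morphants and 4.35 ± 1.84 CPM in wildtype (SD, n = 3 each). Leaving out morphant replicate 2 gave 1.51 (edgeR adjusted p = 0.0438), again in the fit where 8.19% of all genes were called higher and 11.5% lower. The wildtype library made with the TruSeq kit held more of this row than the wildtype libraries of the other kit, and within the TruSeq libraries the log2 fold change was 0.15. It was 0.19 without morphant replicate 1, where, with a kit term, the group difference comes from the TruSeq libraries alone.

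The sum of the FGF8 rows was 16.0, 4.17 and 14.7 CPM in morphant replicates 1 to 3 and 4.00, 3.59 and 6.60 CPM in wildtype replicates 1 to 3. Of tissues that use fgf8 outside the heart, tail bud markers were high in the same morphant libraries. The midbrain-hindbrain boundary markers as listed were not. They were so only when CNPY1 was left out, a step taken after the values were seen. Over 18 rows of tail bud and presomitic mesoderm markers the summed level was 156, 30.6 and 104 CPM in morphants and 34.3, 33.5 and 29.5 CPM in wildtype. All 11 of these rows that were tested had a log2 fold change above 0 (median 2.01), against 9655 of all 18033 genes tested. At an unadjusted edgeR p under 0.05, 6 of them were higher in morphants, against 7.62% of all genes tested. In morphant replicate 2 mespaa and mespab were at 0, and mespaa, mespab and ripply2 were at 0 in wildtype replicate 3, mespab in wildtype replicate 1, and mespab and mespba in wildtype replicate 2. The most abundant of these rows, HES6 (ENSDARG00000019335), a Hairy and enhancer of split family gene, had 30.6, 12.6 and 14.2 CPM in morphants and 11.7, 13.7 and 12 CPM in wildtype (log2 fold change 0.71). The next, the mesoderm T-box gene tbx6, had 25.8, 5.24 and 36.0 CPM in morphants, compared with 3.54, 4.17 and 8.39 CPM in wildtype. Of the midbrain-hindbrain boundary markers 13 of 14 tested rows were positive, with a median of 1.53, and none was at 0 in any library. Their summed level was 190, 150 and 149 CPM in morphants and 125, 170 and 196 CPM in wildtype. Without CNPY1, the most abundant row, it was 166, 35.2 and 107 CPM in morphants and 37.5, 30.3 and 40.8 CPM in wildtype. CNPY1 alone had 24.2, 114 and 41.7 CPM in morphants and 87.3, 140 and 155 CPM in wildtype. EN2 (ENSDARG00000038868), an engrailed homeobox gene of that boundary, had 21.4, 6.96 and 10.9 CPM in morphants and 5.84, 4.86 and 5.89 CPM in wildtype. The other EN2 row (ENSDARG00000026599) had 18.4, 3.54 and 10.7 CPM in morphants and 2.17, 2.80 and 6.41 CPM in wildtype, so its groups overlapped. The part of these tissues in the FGF8 values was not tested.

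Genes with the pattern most like each FGF8 row were ranked by Pearson correlation of log2(CPM + 1) over the 6 libraries, among 14187 other tested genes with a symbol. For FGF8 (ENSDARG00000039615) the first 5 were NKX3-2 (0.998), PRPH (0.997), si:dkey-29d8.3 (0.997), fam234b (0.996) and si:dkey-16l2.17 (0.996), and 390 genes reached 0.95. For FGF8 (ENSDARG00000003399) they were AUTS2 (0.998), RABL2B, MCM3, arhgef49 and GDF10 (0.996 each), and 279 genes reached 0.95. With 6 libraries that share kits and groups, so many genes reach such values that no single likeness stands out.

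Among the receptors fgfr4 had the highest RPKM in every library, although in CPM, which does not allow for length, FGFR2 was above it in each wildtype library. In every receptor row but 1, as in the FGF8 rows, morphant replicates 1 and 3 were the highest libraries. The receptor fgfr4 gave 164, 79.7 and 270 CPM in morphant replicates 1, 2 and 3, against 86.5, 66.3 and 77.9 CPM in wildtype replicates 1, 2 and 3. Morphant replicates 1 and 3 lay above every wildtype library and morphant replicate 2 lay between wildtype replicates 1 and 3. The log2 fold change was 1.13 (SE 0.50, adjusted p = 0.393 in edgeR) and lay between 0.60 and 1.37 as single libraries were left out. It was 1.03 within the mRNA-Seq libraries and 1.06 within the TruSeq libraries. Without morphant replicate 2 the adjusted p was 0.0239.

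FGFR3 encodes a receptor known for its part in skeletal growth. It had 38.6, 9.41 and 28.0 CPM in morphants and 20.6, 7.61 and 8.91 CPM in wildtype, replicates 1 to 3 in each. Here too morphant replicates 1 and 3 were the highest and morphant replicate 2 fell inside the wildtype range, with a log2 fold change of 1.26 (SE 0.58, adjusted p = 0.394 in edgeR). It stayed positive within each kit, at 1.39 and 0.96 for mRNA-Seq and TruSeq.

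FGFR1 is a broadly expressed receptor of the trunk and nervous system. Its row ENSDARG00000011027 had 91.8, 25.5 and 71.0 CPM in morphants and 61.0, 29.5 and 26.2 CPM in wildtype, a log2 fold change of 0.95 (SE 0.50, adjusted p = 0.401 in edgeR). Morphant replicates 1 and 3 were the highest libraries and morphant replicate 2 was the lowest. The row ENSDARG00000011190 was the exception among receptors, with 18.9, 34.6 and 97.2 CPM in morphants and 56.3, 24.7 and 29.5 CPM in wildtype. Morphant replicate 1 was the lowest and morphant replicate 3 the highest of all 6 libraries in this row, and the log2 fold change was 0.04 (SE 0.80, adjusted p = 0.986 in edgeR). Reads shared between the FGFR1 rows, or between the FGF8 rows, may have been split or dropped in counting, so each is uncertain to that degree.

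FGFR2, best known for signalling between epithelium and mesenchyme, had 141, 52.4 and 114 CPM in morphants and 111, 73.7 and 81.5 CPM in wildtype. Morphant replicate 2 was the lowest and morphant replicates 1 and 3 the highest of the 6 libraries, and the log2 fold change was 0.32 (SE 0.41, adjusted p = 0.678 in edgeR). Of the 5 receptor rows 5 were positive and 0 called, with a median of 0.95 on the log2 scale, and with DESeq2 size factors FGFR1 (ENSDARG00000011190) turned negative.

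**Figure D2:**
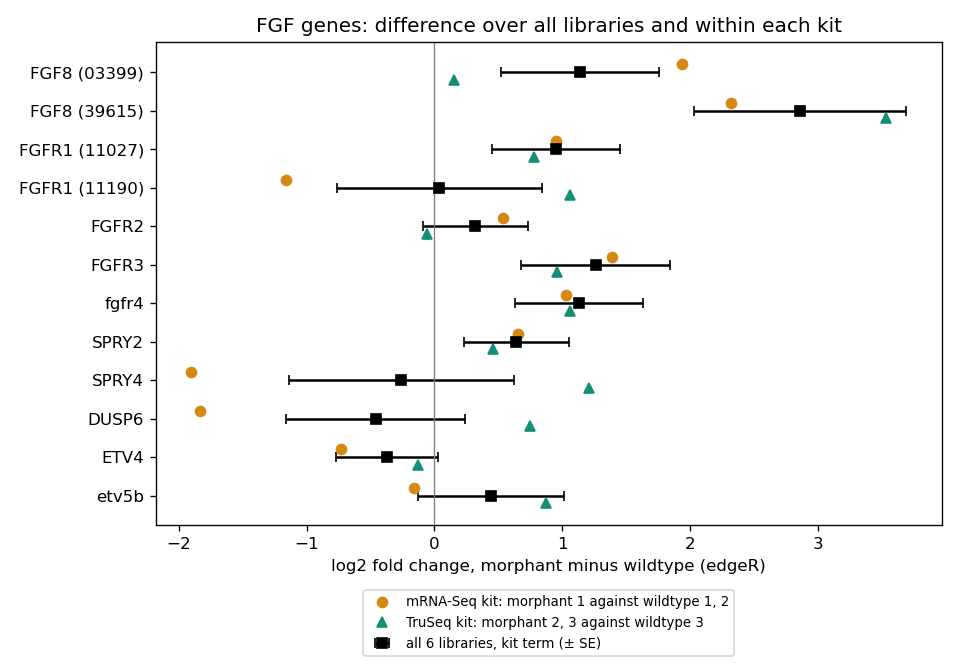
Log2 fold change of each row, morphant minus wildtype, over all 6 libraries with its SE (black squares), within the mRNA-Seq libraries (orange circles) and within the TruSeq libraries (green triangles). For fgfr4 the kits give 1.03 and 1.06, the latter mainly from morphant replicate 3. For SPRY4 they give -1.90 and 1.21 and for DUSP6 -1.83 and 0.75.

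Levels of different genes were compared on the RPKM scale of the authors' values, which divides by a gene length that was not checked here. That length was much larger for FGFR2 (111 CPM but 3.67 RPKM in wildtype replicate 1) than for fgfr4 (86.5 CPM but 16.3 RPKM). The order of receptors on this scale, and the shares that follow, therefore rest on those lengths. Whether they are transcript lengths is not known. In CPM, FGFR2 was above fgfr4 in each wildtype library and below it in each morphant library. By that scale fgfr4 made up 63.6%, 59.5% and 64.7% of summed receptor RPKM in morphant replicates 1, 2 and 3, against 45.9%, 57.5% and 58.8% in wildtype replicates 1, 2 and 3. Its share was 62.6% ± 2.75 in morphants and 54.1% ± 7.10 in wildtype (SD, n = 3 each), and every morphant library was above every wildtype library (59.5% in the lowest morphant and 58.8% in the highest wildtype library). FGFR2 took 9.61%, 6.85% and 4.80% in morphants, below its 10.3%, 11.2% and 10.8% in wildtype. FGFR1 (ENSDARG00000011190) took 6.76%, 23.6% and 21.3% in morphants and 27.3%, 19.6% and 20.4% in wildtype, so morphant replicate 1 stood apart from the other 5 libraries. The summed receptor level was 51.0, 26.0 and 81.6 RPKM in morphants and 35.5, 22.8 and 26.2 RPKM in wildtype. These shares carry no library scaling, and they were noticed after the values were seen and not tested.

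**Figure D3:**
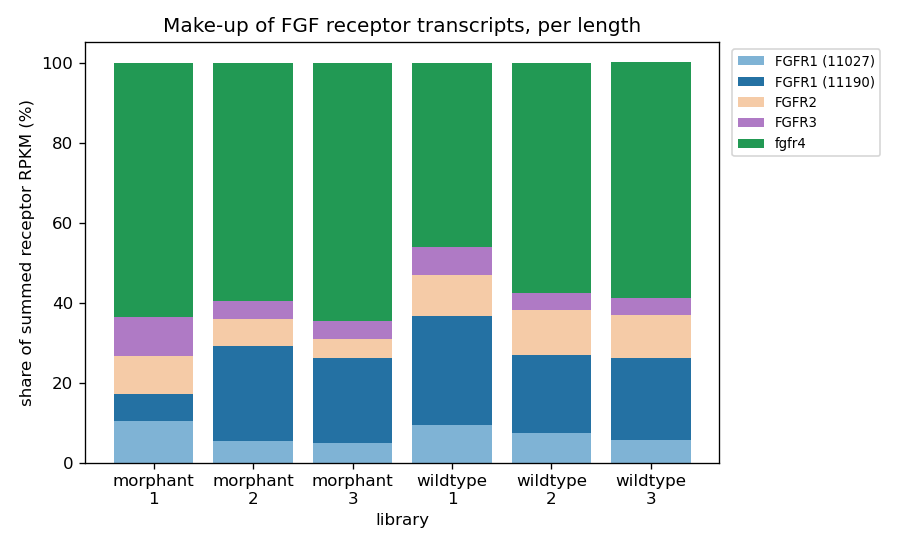
Share of the summed RPKM of the 5 receptor rows that each row took, in percent, per library, with morphants left of wildtype. The shares depend on the authors' gene lengths, which were not checked and may not be transcript lengths. In CPM, FGFR2 is above fgfr4 in each wildtype library. The fgfr4 share is 59.5% or more in each morphant library and 58.8% or less in each wildtype library. This narrow gap was noticed after the values were seen and was not tested.

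Among the feedback inhibitors, SPRY2 and the pair SPRY4 and DUSP6 had different patterns. SPRY2, a Sprouty protein that restrains signalling from receptor to Ras, had 33.0, 19.6 and 36.8 CPM in morphants and 25.5, 14.6 and 19.2 CPM in wildtype. Morphant replicates 1 and 3 were again the highest and morphant replicate 2 lay inside the wildtype range. The log2 fold change was 0.64 (SE 0.41, adjusted p = 0.450 in edgeR), and it was positive in each kit (0.65 and 0.46 for mRNA-Seq and TruSeq).

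SPRY4, the Sprouty family member known in zebrafish as a feedback inhibitor of Fgf8, had 59.6, 144 and 223 CPM in morphants and 273, 150 and 74.3 CPM in wildtype. DUSP6, the cytoplasmic phosphatase that inactivates ERK, had 173, 407 and 620 CPM in morphants and 642, 533 and 288 CPM in wildtype. The 6 libraries fell in the same order for both genes, from wildtype replicate 1 at the top through morphant replicate 3, wildtype replicate 2, morphant replicate 2 and wildtype replicate 3 to morphant replicate 1. Scaled by totals alone the order was not the same for both. The groups overlapped, and the log2 fold changes were -0.26 (SE 0.88, adjusted p = 0.887 in edgeR) for SPRY4 and -0.46 (SE 0.70, adjusted p = 0.731 in edgeR) for DUSP6.

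For SPRY4 and DUSP6 the direction turned with the kit. Within the mRNA-Seq libraries the log2 fold change was -1.90 for SPRY4 (edgeR adjusted p = 0.00555) and -1.83 for DUSP6 (edgeR adjusted p = 0.00824). That fit rests on the spread between 2 wildtype libraries, assumes that the lone morphant library varies like them, and called 9.65% of all genes higher and 12.3% lower. Within the TruSeq libraries both were positive, at 1.21 and 0.75 (edgeR adjusted p = 1.0 each). Leaving out morphant replicate 1 gave 1.24 for SPRY4 and 0.77 for DUSP6, which is no separate evidence, since with a kit term the group difference then comes from the TruSeq libraries alone. In 3 of the 12 rows (SPRY4, DUSP6 and FGFR1 ENSDARG00000011190) morphant replicate 1 was below both wildtype libraries of its kit and the other morphant libraries were above the wildtype library of theirs, as in 5.6% of all genes tested, and 0 rows showed the reverse (5.63% of all genes). A kit by group term had an unadjusted p under 0.05 in edgeR for 2 of the 12 rows, SPRY4 and DUSP6, and for 4.57% of all genes, and passed after adjustment for 0 genes. Since morphant replicate 1 is the only morphant library of its kit, library and kit cannot be told apart. The ratio of DUSP6 to SPRY4 on the RPKM scale was 1.95, 1.91 and 1.88 in morphants and 1.58, 2.39 and 2.61 in wildtype, so the pair kept nearly the same proportion in all 3 morphant libraries.

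Set against fgfr4, DUSP6 had 1.45, 6.97 and 3.13 times its RPKM in morphants and 10.1, 11 and 5.05 times in wildtype. This ratio also carries no library scaling. The morphant and wildtype ranges overlapped in morphant replicate 2 and wildtype replicate 3. The summed level of heart markers was 3633, 2647 and 2995 CPM in morphants and 10644, 5193 and 4588 CPM in wildtype. It was highest in wildtype replicate 1, where SPRY4 and DUSP6 were also highest with TMM. Morphant replicate 3 came next for SPRY4 (223 CPM) and DUSP6 (620 CPM), although its heart marker sum was below that of every wildtype library. The ratio was highest in wildtype replicate 2, and its morphant order was the reverse of that of the sums. That order of the sums rested on the TTN rows, picked after their values were seen. In morphants they had 588, 39.1 and 186 CPM (ENSDARG00000000563) and 677, 82.3 and 192 CPM (ENSDARG00000028213). In the heart marker list 20 of 27 tested rows had a negative log2 fold change, against 8378 of all 18033 genes tested. The only row at 0 was TNNI1, in every library but morphant replicate 3. Whether heart cell content has a part in the SPRY4 and DUSP6 values was not tested.

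The ETS factors did not move together. ETV4, formerly Pea3, had 34.5, 117 and 57.9 CPM in morphants and 56.3, 53.2 and 92.5 CPM in wildtype. It was highest in morphant replicate 2 and wildtype replicate 3, both TruSeq libraries and the ones with the most leukocyte marker RNA (17267 and 19943 CPM), and lowest in morphant replicate 1, which had the least (1702 CPM). The other libraries did not follow this order, since wildtype replicate 2 had 15489 CPM of leukocyte markers but less ETV4 than morphant replicate 3, which had 4243 CPM. The part of leukocytes in this value was not tested. The log2 fold change was -0.37 (SE 0.40, adjusted p = 0.625 in edgeR), and 0.06 without a kit term. The other ETS factor gene, etv5b, formerly erm, had 104, 73.4 and 222 CPM in morphants and 141, 80.3 and 75.1 CPM in wildtype. Morphant replicate 3 was far above the rest, morphant replicate 2 was the lowest, and the log2 fold change was 0.44 (SE 0.57, adjusted p = 0.688 in edgeR). On the RPKM scale ETV4 was 0.542, 2.59 and 0.424 times etv5b in morphants and 0.647, 1.07 and 2.00 times in wildtype, so the ratio spread more within each group than between the groups.

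By the authors' RPKM, and so on their unchecked gene lengths, the order of levels was led by the feedback genes in both groups. In morphants the mean RPKM was 107 ± 59.3 for DUSP6 and 56.2 ± 32.1 for SPRY4, then 33.6 ± 18.7 for fgfr4 (SD, n = 3 each). In wildtype it was 129 ± 45.6 for DUSP6 and 64.8 ± 37.5 for SPRY4, then 18.8 ± 6.35 for ETV4 (SD, n = 3 each). The lowest was FGF8 (ENSDARG00000039615) in both, with 0.874 ± 0.527 RPKM in morphants and 0.184 ± 0.0938 RPKM in wildtype. Neighbours in the morphant order all had overlapping ranges over the 3 libraries. In the wildtype order, only SPRY4 over ETV4, FGFR1 (ENSDARG00000011190) over FGFR2, and FGF8 (ENSDARG00000003399) over FGF8 (ENSDARG00000039615) had ranges that did not overlap. DUSP6 was above SPRY4 in all 6 libraries.

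**Figure D4:**
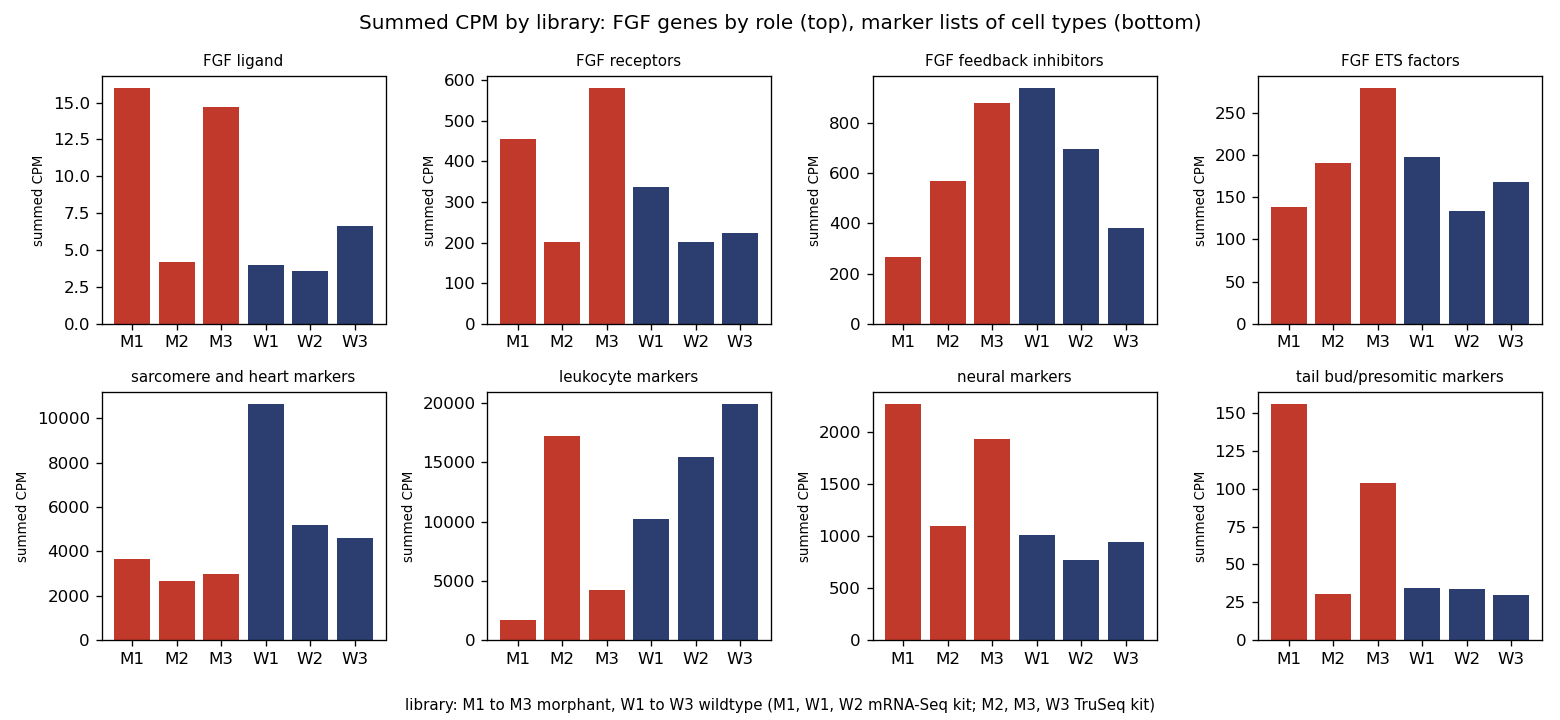
Summed CPM per library (bars from 0, morphant replicates 1 to 3 in red, then wildtype replicates 1 to 3 in blue) for the FGF genes by role in the top row and for marker lists of 4 cell types below. The ligand, receptor, neural and tail bud sums are highest in morphant replicates 1 and 3, and the feedback inhibitor and heart marker sums are highest in wildtype replicate 1. With totals alone the feedback inhibitor sum is highest in morphant replicate 3.

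Markers of several other cell types were also highest in morphant replicates 1 and 3. Neural markers, 31 rows with none at 0, summed to 2271, 1093 and 1931 CPM in morphants and 1008, 771 and 939 CPM in wildtype. The DLD row among them was matched to dld without regard to case and may not be that neural gene. It had 96.1, 107 and 95.5 CPM in morphants and 109, 133 and 125 CPM in wildtype. Skeletal muscle markers, 32 rows, summed to 5357, 1206 and 6888 CPM in morphants and 2231, 1724 and 2248 CPM in wildtype, with only TNNI2 rows at 0. Notochord, placode and epicardial markers, 21 rows with none at 0, ranged over 599 to 2604 CPM in morphants and 693 to 1046 CPM in wildtype. Epidermal markers, 19 rows with none at 0, ranged over 3534 to 15679 CPM in morphants and 3969 to 5111 CPM in wildtype. Endoderm and liver markers, 19 rows, were high in morphant replicate 1 only and ranged over 194 to 3532 CPM in morphants and 154 to 215 CPM in wildtype, with serpina1 at 0 in morphant replicate 3 and wildtype replicates 1 and 3 and fga at 0 in wildtype replicate 1. Endothelial markers, 15 rows with none at 0, ranged over 261 to 407 CPM in morphants and 310 to 662 CPM in wildtype. Among leukocyte markers only an MPEG1 row was at 0, in 4 libraries. The part of these cells in the FGF values was not tested.

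The other FGF ligand genes with a row were scarce, while fgf2, FGF3, FGF4, fgf17, FGF19, fgf21 and FGF22 were not analysed here. Of 14 rows present, 7 were tested, 6 positive and 1 negative, and 0 called. Their log2 fold changes had a median of 0.43. fgf1a, a ligand that lacks a classical secretion signal, had 4.41, 0.201 and 2.24 CPM in morphants and 0.722, 0.370 and 0.192 CPM in wildtype, a log2 fold change of 2.85 (SE 0.97, adjusted p = 0.393 in edgeR). Again morphant replicates 1 and 3 were high and morphant replicate 2 was not. FGF10, a ligand of mesenchyme, was the most abundant, with 4.91, 5.15 and 14.4 CPM in morphants and 6.5, 2.06 and 5.00 CPM in wildtype (log2 fold change 0.58). fgf24 of the fgf8 subfamily and FGF6 (ENSDARG00000009351) had log2 fold changes of 1.38 and -0.44. Of the intracellular FGF homologous factors, which do not activate receptors, the FGF13 rows were the only 2 tested. FGF13 (ENSDARG00000056633) had 6.46, 2.59 and 9.12 CPM in morphants and 1.51, 2.43 and 1.35 CPM in wildtype, a log2 fold change of 1.90 (SE 0.64, adjusted p = 0.393 in edgeR). Every morphant library was above every wildtype library there, as in 7.76% of all genes tested. FGF13 (ENSDARG00000035056) had 0.88.

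Other receptors and coreceptors were positive in 8 of 8 tested rows (10 rows present), and 0 were called. The median of their log2 fold changes was 1.53, and all 8 stayed positive under each of 3 scalings. FLRT3, a membrane protein that binds FGF receptors, had 154, 33.1 and 108 CPM in morphants and 42.9, 33.7 and 36.5 CPM in wildtype. Morphant replicates 1 and 3 were above every wildtype library and morphant replicate 2 was narrowly below all of them with TMM but not with totals alone, and the log2 fold change was 1.48 (SE 0.51, adjusted p = 0.393 in edgeR). Its relatives FLRT1 and FLRT2 had 2.91 and 1.58. FLRT1 was rare, with 29, 24 and 16 counts in morphants and 11, 2 and 0 counts in wildtype. The gene klb, for a coreceptor of hormone-like FGFs, had 1.69. This value rested on 7.70 CPM in morphant replicate 1 against 0.690 to 0.990 CPM in the other morphant and 0.792 to 0.919 CPM in the wildtype libraries.

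The adaptors and the Ras to ERK relay had 8 positive and 16 negative of 24 tested rows, with 0 called. Their median was -0.19 on the log2 scale with TMM, but 0.19 with library totals alone, where 16 rows were positive and all genes had 0.46. KSR1 (ENSDARG00000030933), a scaffold that holds Raf, MEK and ERK together, had 16.2, 86.0 and 34.2 CPM in morphants and 64.9, 69.8 and 109 CPM in wildtype, a log2 fold change of -1.45 (SE 0.51, adjusted p = 0.393 in edgeR). The other KSR1 row (ENSDARG00000068714) was rarer and had the opposite sign, with a log2 fold change of 1.35 (SE 0.93). It had 3.11, 0.662 and 2.92 CPM in morphants and 2.89, 0.581 and 0.449 CPM in wildtype. The adaptor grb2b had 69.4, 320 and 105 CPM in morphants and 195, 263 and 312 CPM in wildtype (log2 fold change -1.14). In grb2b and KSR1 (ENSDARG00000030933) morphant replicate 2 was in or just above the wildtype range and morphant replicates 1 and 3 below it. This was the same split as the leukocyte marker sums of 1702, 17267 and 4243 CPM in morphants and 10211, 15489 and 19943 CPM in wildtype. The part of leukocytes in these values was not tested. SOS2, which loads Ras with GTP, and RASA1 (ENSDARG00000035535), which switches Ras off, had log2 fold changes of 0.78 and 0.64.

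Of 9 tested rows of other feedback inhibitors and ETS targets, 4 were positive and 5 negative, and 0 were called. Their median was -0.32 on the log2 scale with TMM and 0.05 with library totals alone. Without CNPY1, which is no inhibitor and is also in the midbrain-hindbrain boundary list, the TMM median was not negative. It was negative again when dusp14 was left out as well. DUSP5, a nuclear ERK phosphatase, had 59.3, 157 and 160 CPM in morphants and 190, 206 and 163 CPM in wildtype. With TMM it was lower in every morphant than in every wildtype library, as were 5.78% of all genes tested. This was not so with library totals alone. The log2 fold change was -0.89 (SE 0.48, adjusted p = 0.407 in edgeR). CNPY1, whose zebrafish protein promotes receptor signalling at the midbrain-hindbrain boundary, had a log2 fold change of -1.61 (SE 0.57, adjusted p = 0.393 in edgeR). Its morphant replicate 2 lay in the wildtype range and morphant replicates 1 and 3 below it, the split also seen in the leukocyte marker sums. The part of leukocytes in the CNPY1 values was not tested. For dusp14 and SPRED2 (ENSDARG00000008372) the log2 fold changes were 2.77 and 0.83. The dusp14 row was rare, with 12, 25 and 44 counts in morphants and 7, 3 and 0 counts in wildtype. It had 0.745, 0.719 and 2.29 CPM in morphants and 0.459, 0.158 and 0 CPM in wildtype. The row therefore met the count filter (0.559 CPM in 3 libraries) through morphant libraries alone. Its positive sign, and its place above every wildtype library with TMM, are thus no separate evidence. The paralogue of etv5b, etv5a, was picked after its values were seen. It had 53.1, 77 and 157 CPM in morphants and 163, 107 and 96.2 CPM in wildtype (log2 fold change -0.53), with morphant replicate 1 lowest and wildtype replicate 1 highest, as for SPRY4 and DUSP6, although morphant replicate 3 was highest with totals alone. DUSP4, another ERK phosphatase and likewise picked afterwards, had 18.2, 69.6 and 119 CPM in morphants and 111, 72.8 and 51.7 CPM in wildtype (log2 fold change -0.73), and morphant replicate 1 was again the lowest.

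**Figure D5:**
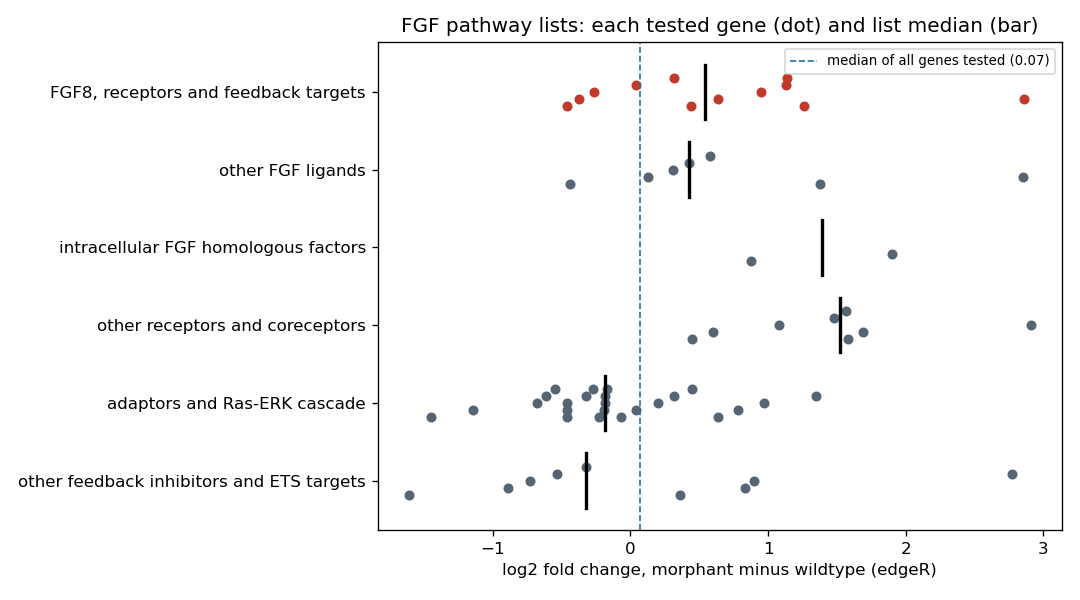
Log2 fold change, morphant minus wildtype, of each tested gene (dots) in the 12 chosen rows (red) and in 5 further FGF pathway lists (grey), with each list's median as a black bar and the median of all genes tested, 0.07, as a dashed line. The list medians range from -0.32 (0.05 with library totals alone) for other feedback inhibitors and ETS targets to 1.53 for other receptors and coreceptors. The lowest median is not negative when CNPY1 is left out, but is negative again when dusp14 is left out as well. That of the adaptors and the Ras to ERK relay is also negative, at -0.19 (0.19 with library totals alone). No gene shown passed the test.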

How the data were processed

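Total RNA of sorted cells was sequenced in 6 libraries, 3 per group. Per the file headers, the authors deposited raw counts by Ensembl identifier with a column for each library, and RPKM values. Within a gene the RPKM followed the count plus 1. The p-values and adjusted p-values were deposited by the authors without naming a tool. Named in the submitters' processing notes are BWA, CASAVA 1.7.0, DESeq and build Zv9. How reads were counted, and whether by strand, is not given in the sources used here. Symbols matched 19189 of 27456 identifiers (69.9%), and no coordinates are reported. Relative to wildtype replicate 1, the depth implied by RPKM per gene count was 0.787 to 1.22, so RPKM and counts scale libraries differently.

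The count test was that of edgeR 4.0.16 (R 4.3.3): TMM scaling, filterByExpr (18033 genes left, all 12 rows among them), kit and group terms, two-sided quasi-likelihood F test, 3 residual degrees of freedom, Benjamini-Hochberg over all genes tested, threshold 0.05. The biological coefficient of variation was 0.47. Each SE is the log2 fold change over the square root of F. DESeq2 1.42.0 and limma 3.58.1 were alternatives. The test was also run on counts simulated at that variation, with 200 genes changed by 3 on the log2 scale. The changed genes were drawn from those with a mean above 5 CPM, and every gene was given the same variation. There edgeR called 180 of the changed genes and 4 others, and DESeq2 called 190 and 38 others. FGF8 (ENSDARG00000039615), with means of 2.01 CPM in morphants and 0.38 CPM in wildtype, lies below that level, so these counts do not apply to it. Smaller changes and differences in cell content were not simulated. Chi-square per gene between libraries of a group was 54.8 to 421, so none agreed within sampling noise. Counts cover counting error only as far as reads are separate molecules. The genes named are the 12 rows, up to 4 genes of each pathway list with the smallest p, up to 3 of the most abundant rows of a marker list and the 5 genes most like each FGF8 row. Beyond these, etv5a, DUSP4, the TTN rows and KSR1 (ENSDARG00000068714) were picked after their values were seen. CNPY1 was likewise left out of the midbrain-hindbrain boundary sum after its values were seen. Members and lists were chosen with earlier results of these data known.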

Additional observations from a re-analysis of the deposited data

Results flagged for a closer look

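In 3 of the 12 rows the library of the mRNA-Seq kit and the libraries of the TruSeq kit moved in opposite directions: morphant replicate 1 was below both wildtype libraries of its kit, and morphant replicates 2 and 3 were above the wildtype library of theirs. This was so for 5.6% of all genes tested, and the reverse for 5.63%. The difference of log2 fold changes, TruSeq minus mRNA-Seq, was 3.13 (SE 0.90) for SPRY4, with an unadjusted p of 0.00956 for the kit by group term in edgeR and an adjusted p of 0.873. For DUSP6 it was 2.60 (SE 0.80, edgeR unadjusted p = 0.013, adjusted p = 0.909), and for FGFR1 (ENSDARG00000011190) it was 2.26 (SE 1.16, edgeR unadjusted p = 0.0917, adjusted p = 1.0). None passed, and 0 of 18033 genes did, with 824 (4.57%) at an unadjusted p under 0.05. This term was added after the data were seen. One morphant library and one wildtype library stand alone in their kit, so kit and library cannot be told apart.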

How the results depend on the processing

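The sign of the log2 fold change was the same under all 15 alternatives for both FGF8 rows, FGFR1 (ENSDARG00000011027), FGFR3, fgfr4 and SPRY2. The other 6 rows changed sign in 1 or more. FGFR1 (ENSDARG00000011190) was -0.02 in DESeq2 and with DESeq2 size factors in edgeR, -0.002 with no filter on low counts, -1.16 within the mRNA-Seq kit, and -1.13 to 1.09 as single libraries were left out. FGFR2 was -0.06 within the TruSeq kit and -0.03 to 0.57 with libraries left out. SPRY4 was 0.13 with library totals alone, -1.90 within mRNA-Seq, 1.21 within TruSeq, and -1.87 to 1.24 with libraries left out. DUSP6 was -1.83 within mRNA-Seq, 0.75 within TruSeq, and -1.80 to 0.77 with libraries left out. ETV4 was 0.06 with no kit term and 0.06 as a ratio of mean RPKM, an alternative chosen after the data were seen. For etv5b it was -0.16 within mRNA-Seq and -0.14 to 0.90 with libraries left out. FGF8 (ENSDARG00000003399) was 1.94 within mRNA-Seq (edgeR adjusted p = 0.0198) and 0.19 to 1.97 with libraries left out, FGF8 (ENSDARG00000039615) 2.26 to 3.56, and fgfr4 0.60 to 1.37. The count of the 12 rows called was 3 within mRNA-Seq and 0 to 3 with libraries left out (3 without morphant replicate 2). Over all genes 281 were called in DESeq2, 44 with no filter, 4352 within mRNA-Seq, 1 within TruSeq, and 0 to 3745 with libraries left out (3745 without morphant replicate 2). Of all genes tested without morphant replicate 2, 8.19% were called higher and 11.5% lower. The shares for the mRNA-Seq fit are given with SPRY4 and DUSP6 above. With library totals alone 0 of the 12 rows had every morphant library above every wildtype library, against 1 with TMM. The cause was not tested. With a kit term, leaving out morphant replicate 1 leaves the group difference to the TruSeq libraries, and leaving out wildtype replicate 3 leaves it to the mRNA-Seq libraries. No paired analysis was possible because the labels give no replicate numbers. FGF8 (ENSDARG00000039615), at 2 to 53 counts, is the row that depth limits most.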
